A study of Mus musculus with 24 samples.

Results

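The comparison described here set whole dentate gyrus RNA of mice that ran on a wheel against that of mice with a blocked wheel. The dentate gyrus is the part of the hippocampus in which granule neurons are born in adult life. Of the 24 libraries of the study, 12 held RNA of the tissue without precipitation (input) and form this comparison, 6 from running and 6 from sedentary mice. They were chosen by their labels alone. The other 12 held RNA precipitated with tagged ribosomes (IP). They serve here for values side by side and for a test of the running difference in IP minus that in input. Per the labels, all animals were female C57BL6 mice carrying a tamoxifen-inducible Cre driven by the Nestin promoter and 1 RPL22HA allele (Nes-CreERT2::RiboTag). All received tamoxifen at 9 to 11 weeks of age, daily for 5 days at 160 mg/kg, controls included, so no library comes from untreated or unmodified animals. Running mice lived singly with a wheel that turned, and sedentary mice in the same cages with the wheel glued. The treatment time was 11, 18 or 27 days, with 2 running and 2 sedentary input libraries at each time, lettered a and b, c and d, and e and f. The number of mice behind each library, whether the 2 libraries of a group are from different animals, the distance run and the hour of dissection are not in the labels. The p-values therefore measure the spread between these libraries, which may be technical.

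Voluntary running is a standard way to increase the birth and survival of granule neurons in adult rodents. Growth factors such as BDNF, IGF1 and VEGF, hippocampal neuromodulators and neuronal activity are the signals most often linked to that response. In whole tissue most RNA comes from mature granule neurons and glia, and newborn cells give a small part of it. In such bulk samples a smaller number of cells of a type and less RNA per cell cannot be told apart.

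Values are TPM, an abundance scaled for gene length and to a fixed total per library. Read depth is therefore unknown, and only the replicate spread shows how precise a value is. All 18 genes entered as granule neuron markers were above 0 TPM in all 12 libraries. Prox1, the transcription factor that defines granule neurons, stood at 169 to 275 TPM. Markers of neighbouring hippocampal fields were present too, with Pcp4 at 501 to 927 TPM. Olfactory receptor genes, which brain tissue is not expected to use, serve as a measure of background. Principal component 1 held 69.7% of the variance and followed their mean TPM. The correlation was 0.996 in absolute value over 12 libraries of 3 days, a description. The mean of these genes was 0.518 to 2.58 TPM at day 11, 4.67 to 9.78 TPM at day 18 and 1.74 to 3.66 TPM at day 27. Libraries did not group by day alone: the sedentary library a of day 11 correlated at 0.980 with the sedentary library e of day 27. With the sedentary library b of its own day it correlated at 0.972 (Pearson, log2 scale). All contrasts below were taken within days, which does not remove differences in background within a day. Between running and sedentary libraries the olfactory receptor mean differed by 0.989 TPM (4.18 ± 3.70 against 3.19 ± 2.57 TPM, SD, n = 6 each; two-sided exact permutation within days over 216 relabellings, p = 0.306). Of 6 such library measures, none had an adjusted p below 0.5 in that exact permutation test, whose smallest possible p is 0.00926. Within days its direction differed: it was 0.709 and 0.518 TPM in the running and 2.58 and 0.542 TPM in the sedentary pair of day 11, and 9.78 and 7.35 against 7.64 and 4.67 TPM on day 18, with overlap on both days. On day 27 it was 3.06 and 3.66 against 1.98 and 1.74 TPM, without overlap.

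**Figure D1:**
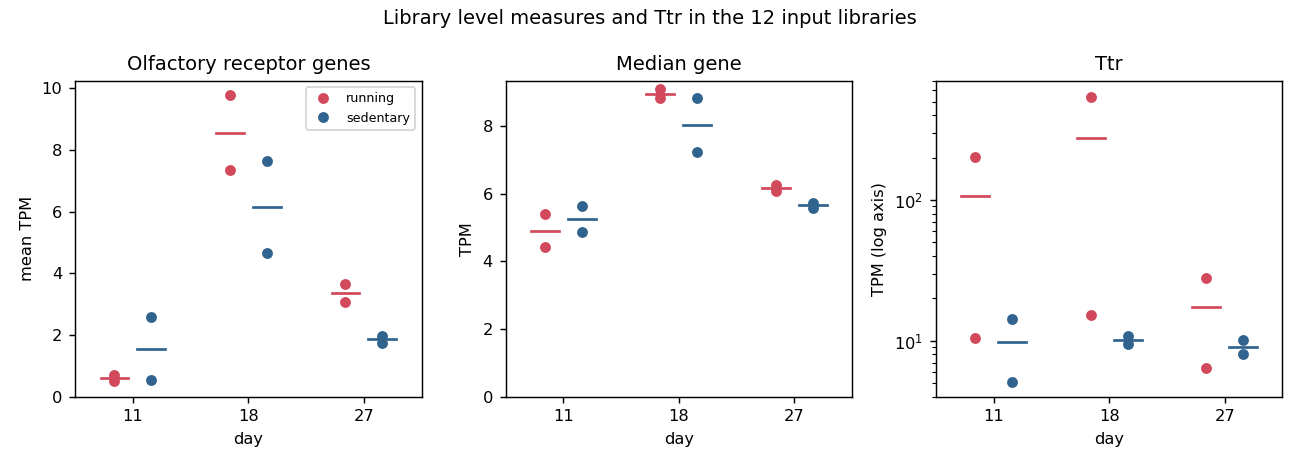
Mean TPM of olfactory receptor genes, TPM of the median gene and TPM of the choroid plexus gene Ttr in each of the 12 input libraries, by day (points, libraries; short lines, means of 2; the axis of Ttr is logarithmic). The olfactory receptor level was highest at day 18, up to 9.78 TPM, and Ttr was high in only 2 libraries, at 202 and 539 TPM.

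Averaged over the 3 days, no gene passed the test between running and sedentary dentate gyrus. The test was limma on log2(TPM + 1), 2-sided, with Benjamini-Hochberg adjustment over 20462 genes and a threshold of 0.05 on the adjusted p, and it called 0 genes (0%). An unadjusted p under 0.05 was found for 858 genes (4.19%), 412 with running higher (2.01%) and 446 with running lower (2.18%). The difference was above 0 for 10240 genes (50%), and for 12392 genes after median-of-ratios scaling, which moved the median of all genes from 0.00 to 0.04. The median standard error of a gene's difference was 0.168 on the log2 scale. Differences several times that size did not pass either, so the absence of calls does not show that differences are absent. Fold changes stand on the log2(TPM + 1) scale throughout, which understates the change of low genes.

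Within single days the test compared 2 against 2 libraries with the spread pooled over all 6 groups. At day 11, 0 genes passed (0%) and 500 had an unadjusted p under 0.05 (2.44%), 107 higher (0.523%) and 393 lower (1.92%). At day 27, 0 genes passed (0%) and 1079 had an unadjusted p under 0.05 (5.27%), 974 higher (4.76%) and 105 lower (0.513%). At day 18, 2 of 20462 genes passed (0.00977%), 1 in each direction (0.00489% each), and 1210 had an unadjusted p under 0.05 (5.91%), 691 higher (3.38%) and 519 lower (2.54%). The balance of higher and lower genes at days 11 and 27 had the direction of the olfactory receptor genes, whose own median difference was −0.50 at day 11, 0.41 at day 18 and 0.59 at day 27; its part in those counts was not tested. No gene's running difference was called as depending on the day in limma's F test (0 of 20462 genes, 0%, with 1015 at an unadjusted p under 0.05, 4.96%). Across the 20462 genes the differences of days 18 and 27 correlated at 0.34, those of days 11 and 18 at −0.25 and those of days 11 and 27 at −0.37 (Pearson). In the same order the rank correlations (Spearman) were 0.43, −0.27 and −0.32. Among the 7441 genes with a mean of at least 20 TPM, Pearson gave 0.44, −0.13 and −0.32 and Spearman 0.32, 0.12 and 0.15, so the sign of the correlations with day 11 differed between measures. Genes are not independent replicates, and a library's background enters all its genes.

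Both genes that passed at day 18 were small RNAs listed at 0 in 10 of the 12 libraries. Scarna8, a small Cajal body RNA (GRCm38 chromosome 4, 86586453 to 86586583, minus strand), stood at 9.65 and 9.44 TPM in the running libraries of day 18 and was listed at 0 in all others (limma adjusted p = 0.00756). It lies inside the gene Haus6, on the same strand and outside its exons. Haus6 itself, a subunit of a complex that nucleates microtubules, had 3.80 and 9.06 against 6.32 and 9.91 TPM on that day (limma adjusted p = 0.812). Mir701, a microRNA precursor (chromosome 5, 111004144 to 111004252, plus strand), stood at 6.34 and 9.33 TPM in the sedentary libraries of day 18 and was listed at 0 in all others (limma adjusted p = 0.0155). It lies inside Ttc28, on the same strand and outside its exons, and Ttc28 had 8.73 and 10.9 against 11.9 and 10.6 TPM. An exact 0 in this table may be a failed estimate. With a pseudocount of 0.1, or with a block for the letters, 0 genes passed, and neither gene was tested at a mean TPM of at least 5. Neither passed without the running library c or d of day 18, where 0 and 8 genes passed, nor did Mir701 without any 1 of the sedentary libraries c, d, e and f. The values belong to the precursor row and do not tell its 2 mature arms apart. Both arms are shown because this was the only microRNA called, from RefSeq (GRCm38.p6), with the seed, bases 2 to 8, in capitals:
mmu-miR-701-5p: uUAGCCGCugaaauagaugga
mmu-miR-701-3p: uAUCUAUUaaagaggcuagc

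Among genes with higher values in running mice, 12 were taken as nearest to the threshold, by lowest p among named genes with 1 sign on all 3 days and at least 5 TPM, and none passed. Mylk3, a myosin light chain kinase best known from heart muscle (chromosome 8, 85324303 to 85386345, minus strand), came nearest. It measured 19.4 and 17.4 TPM in the running and 6.13 and 7.07 TPM in the sedentary pair on day 11. Day 18 gave 18.9 and 12.6 against 8.63 and 7.59 TPM, and day 27 gave 18.0 and 18.7 against 7.02 and 10.5 TPM. All running libraries lay above all sedentary ones, also across days. The means were 17.5 ± 2.51 and 7.83 ± 1.56 TPM (SD, n = 6 libraries), a log2 difference of 1.07 ± 0.13 (SE, 95% interval 0.78 to 1.37) with a limma adjusted p of 0.118. Leaving out the running library d of day 18, its lowest value, gave 1.16 and an adjusted p of 0.0398; over all alternatives the adjusted p ran from 0.0398 to 0.721.

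Nptx2, which encodes a secreted pentraxin that gathers glutamate receptors at synapses and is induced by activity (chromosome 5, 144545902 to 144557478, plus strand), came next. It measured 27.1 and 27.7 against 16.7 and 20.7 TPM on day 11. Day 18 gave 25.2 and 21.9 against 11.0 and 13.7 TPM, and day 27 gave 19.1 and 23.6 against 13.4 and 15.9 TPM. The groups did not overlap on any day. The log2 difference was 0.64 ± 0.11 (SE, 95% interval 0.40 to 0.88, limma adjusted p = 0.619).

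Penk encodes the precursor of the enkephalin opioid peptides (chromosome 4, 4133531 to 4138819, minus strand). It measured 118 and 129 against 68.5 and 77.7 TPM on day 11, and 120.3 and 107 against 66.1 and 69.2 TPM at day 27. At day 18, when its level was lowest in both groups, 61.6 and 48.0 TPM in running overlapped with 37.2 and 50.9 TPM in sedentary libraries. Its log2 difference was 0.60 ± 0.11 (SE, limma adjusted p = 0.762). Inhba, whose product forms activin A, a growth factor induced by neuronal activity, measured 27.8 and 26.5 against 15.8 and 16.5 TPM on day 11. The gap was narrower later, 21.4 and 21.0 against 19.9 and 16.1 TPM at day 18 and 22.3 and 26.1 against 20.6 and 17.2 TPM at day 27, without overlap within a day. Its log2 difference was 0.43 ± 0.10 (SE, limma adjusted p = 0.953). Tnnt2, the troponin T of heart muscle, stood at 9.53 to 31.2 TPM in running and 3.48 to 11.2 TPM in sedentary libraries, the widest relative spread among running libraries of these 5 genes, with a log2 difference of 1.10 ± 0.22 (SE, adjusted p = 0.774). Tubb2b, a beta tubulin of growing neurons, ranged from 141 to 230.2 TPM in running and from 111 to 141 TPM in sedentary libraries.

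The remaining 6 were Tshb, the beta subunit of thyroid-stimulating hormone, Plekha2, which binds membrane phosphoinositides, the plakin Ppl, Pmepa1, which dampens TGF-beta signalling, Cntnap5b of the neurexin superfamily, and Esam, an adhesion molecule of endothelial cells. Their log2 differences ran from 0.31 to 0.87, each with a limma adjusted p of 0.953. Tshb followed the days: it stood at 0 to 1.29 TPM in the 4 libraries of day 11 and at 5.01 to 13.2 TPM at day 18, the order of days of the olfactory receptor genes, and the part of that background in its values was not tested. Of all 12 genes, 11 had both running libraries above both sedentary libraries on each of the 3 days; among all genes tested this held for 67 (0.327%), and the choice of the 12 by their p-value favours it.

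**Figure D2:**
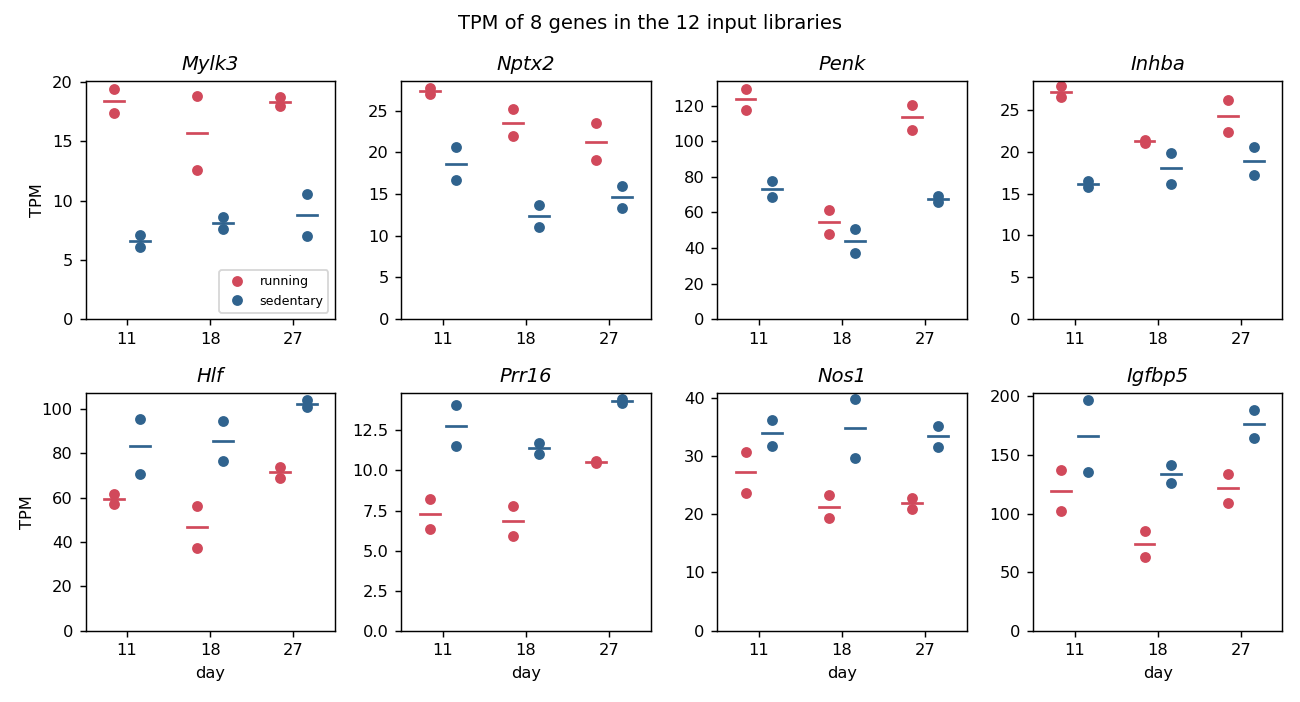
TPM of 4 genes with higher and 4 genes with lower values in running mice, in each of the 12 input libraries by day (points, libraries; short lines, means of 2; axes start at 0). None of the 8 passed over all genes; Mylk3 shows no overlap between 12.6 to 19.4 TPM in running and 6.13 to 10.5 TPM in sedentary libraries.

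Among genes with lower values in running mice, 12 were likewise taken by the rule and none passed. Prr16, which encodes a protein linked to cell size (chromosome 18, 51117733 to 51420044, plus strand), measured 6.34 and 8.20 TPM in the running and 11.5 and 14.1 TPM in the sedentary pair on day 11. Day 18 gave 5.94 and 7.76 against 11.7 and 11.0 TPM, and day 27 gave 10.6 and 10.5 against 14.2 and 14.4 TPM. All 6 running libraries lay below all 6 sedentary ones. The log2 difference was −0.61 ± 0.12 (SE, 95% interval −0.86 to −0.35, limma adjusted p = 0.762). Vwa3a was likewise separated over all libraries, with 5.94 to 9.28 TPM against 11.7 to 14.7 TPM (log2 difference −0.59 ± 0.12, adjusted p = 0.762).

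Nos1, the neuronal nitric oxide synthase of a class of interneurons (chromosome 5, 117781032 to 117958840, plus strand), measured 30.7 and 23.7 against 31.7 and 36.2 TPM on day 11. Day 18 gave 19.4 and 23.3 against 39.8 and 29.7 TPM, and day 27 gave 20.9 and 22.8 against 35.2 and 31.5 TPM. The running libraries were lower on each day, by the least at day 11. Its log2 difference was −0.53 ± 0.11 (SE, limma adjusted p = 0.926). Igfbp5, a secreted protein that binds insulin-like growth factors (chromosome 1, 72857932 to 72874884, minus strand), measured 102 and 137 against 135 and 196 TPM on day 11, where the groups overlapped. They were apart later, with 63.0 and 85.2 against 126 and 142 TPM at day 18 and 109 and 134 against 165 and 188 TPM at day 27 (log2 difference −0.62 ± 0.14, SE, adjusted p = 0.926).

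Hlf, the third by rank, is described with the clock genes. The remaining 7 were St3gal1, a sialyltransferase, Cys1, a protein of primary cilia, Gatm, the first enzyme of creatine synthesis, the calcium pump gene Atp2b4, and Tmem255a, Csmd3 and Vstm2b, which encode membrane proteins. Their log2 differences ran from −0.63 to −0.35, with limma adjusted p of 0.926 or 0.953. Of all 12 genes, 10 had both running libraries below both sedentary libraries on each day, against 138 (0.674%) of all genes tested. Here too the choice of the 12 by their p-value favours it. Of these 24 genes, Penk, Plekha2, Nos1, Vwa3a, Tmem255a and Vstm2b share exonic sequence with a gene on the opposite strand in GENCODE M21, as do Bdnf, Cdkn1a, Hopx, Id4, Idi1, Kcnn2, Mt2, P2ry12 and others named below. The strand setting of the counting is not given in the sources used here. Whether the reads of such partners were kept apart is therefore unknown.

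Beside these input values stand those of the IP. The labels do not say whether the IP and input library of a letter came from the same tissue, so agreement in sign need not be independent. Mylk3 stood at 9.36 ± 0.930 TPM in running and 4.83 ± 1.21 TPM in sedentary IP libraries (SD, n = 6 each), a log2 difference of 0.85. Penk stood at 25.7 ± 5.12 and 16.7 ± 3.86 TPM there, with a log2 difference of 0.60, the same as in input to 2 decimals. Prr16, with 8.74 ± 1.56 and 13.4 ± 3.57 TPM, and Hlf, with 30.8 ± 5.32 and 43.9 ± 3.42 TPM, were lower in running mice in the IP too. In sign, 9 of the 12 higher and 12 of the 12 lower genes had the same direction in the IP, against 10626 of all 20462 genes (51.9%). The 3 others were Inhba, with 24.3 ± 5.26 TPM in running and 26.5 ± 8.24 TPM in sedentary IP libraries, Tshb and Esam. The running difference in IP minus that in input was tested over all 24 libraries and called 0 of 19507 genes (0%, limma), with 1166 at an unadjusted p under 0.05 (5.98%). For Inhba that difference was −0.52 ± 0.16 (SE, adjusted p = 0.803). Scarna8, called at day 18, had 0.945 ± 2.31 TPM in running and 4.36 ± 3.86 TPM in sedentary IP libraries of all days. That was the opposite direction to input, with a difference between fractions of −2.58 ± 0.66 (SE, limma adjusted p = 0.803). Mir701 had 3.35 ± 5.27 and 3.06 ± 5.18 TPM in the IP. Calb2, which encodes calretinin of young granule neurons, had one of the larger differences between fractions of the genes named here, without passing: it stood at 186 ± 51.5 and 199 ± 47.3 TPM in running and sedentary input and at 362 ± 157 and 177 ± 97.6 TPM in the IP (1.13 ± 0.24, SE, adjusted p = 0.595).

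**Figure D3:**
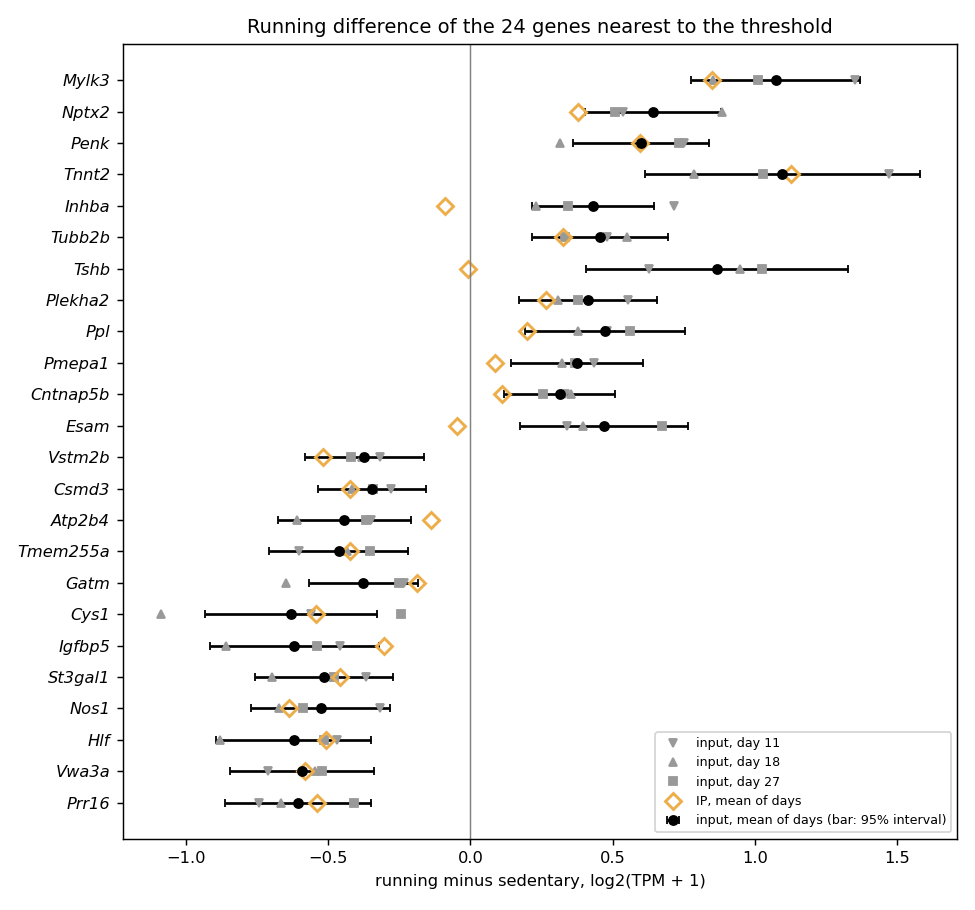
Running minus sedentary difference in log2(TPM + 1) of the 24 genes nearest to the threshold, in input as the mean of the days with its 95% interval (black), in input within each day (grey) and in the IP (open diamonds). In the IP, 21 of the 24 lie on the same side of 0; Inhba, Tshb and Esam do not.

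Genes that running and neuronal activity are known to act on were next. Bdnf encodes the neurotrophin most often tied to exercise (chromosome 2, 109674700 to 109727007, plus strand). It measured 54.4 and 59.7 TPM in the running and 33.1 and 46.8 TPM in the sedentary pair on day 11. Day 18 gave 39.5 and 54.7 against 37.5 and 44.1 TPM, and day 27 gave 57.9 and 54.3 against 50.7 and 45.8 TPM. The groups overlapped at day 18 only, where the running library c was low. The means were 53.4 ± 7.16 and 43.0 ± 6.50 TPM (SD, n = 6 each), a log2 difference of 0.31 ± 0.12 (SE, 95% interval 0.05 to 0.57, limma unadjusted p = 0.0233, adjusted p = 0.953). Its receptor Ntrk2 stood at 180.1 ± 25.1 and 191 ± 15.9 TPM, with a log2 difference of −0.09 (95% interval −0.32 to 0.13). Of the 10 neurotrophin and receptor genes tested out of 12 entered, 6 had a positive difference and the median was 0.00, the same as the 0.00 of all genes; 0 passed.

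Vgf, a neuropeptide precursor induced by BDNF, was apart on day 11 only: 55.2 and 61.6 against 33.4 and 46.4 TPM, while at day 18 it was 36.2 and 34.1 against 33.4 and 41.4 TPM. Its log2 difference over the days was 0.16 ± 0.11 (SE, adjusted p = 0.953), and its difference between days was not called (limma F test, adjusted p = 0.998). Igf1, a growth factor, had 8.96 ± 3.0 TPM in running and 7.44 ± 2.39 TPM in sedentary libraries, and its receptor Igf1r had 23.3 ± 1.59 and 26.1 ± 2.48 TPM. The angiogenic factor Vegfa had 38.5 ± 8.5 and 37.9 ± 5.98 TPM, with a log2 difference of 0.01 (95% interval −0.26 to 0.28). Of 23 growth factor genes tested out of 24, 11 had a positive difference (median −0.02) and 0 passed.

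Immediate early genes, which neurons switch on within minutes of activity, gave no called difference. Fos stood at 1.77 to 6.19 TPM in running and 2.0 to 3.74 TPM in sedentary libraries (log2 difference 0.24 ± 0.20, SE, adjusted p = 0.953). Arc, whose RNA travels to active synapses, had 21.2 ± 5.61 and 22.8 ± 3.75 TPM, and Egr1 had 18.3 ± 5.36 and 21.4 ± 5.33 TPM. Npas4 and Nr4a1, activity-induced transcription factors, had log2 differences of 0.18 ± 0.20 and −0.11 ± 0.16. Of the 30 immediate early and activity-induced genes, 12 had a positive difference, the median was −0.05 and 0 passed. The 3 with an unadjusted p under 0.05 all had running higher (2.01% of all genes): Nptx2, Inhba and the transcription factor Fosl2, with 25.7 ± 3.69 against 21.3 ± 2.06 TPM. These 3 were separated on all 3 days (0.327% of all genes), which their choice by p-value favours.

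Genes of the circadian clock had mostly lower values in running mice. The clock is a loop in which CLOCK and BMAL1 (Arntl) switch on the Per and Cry genes, whose products then hold them back, and in which the proline- and acid-rich factors Dbp, Tef and Hlf pass the rhythm to output genes; such genes change with the time of day. This list, like the others, was chosen with earlier results of these data known, so its counts beside all genes are a description. Of 19 members tested, 3 had a positive difference and the median was −0.17, beside 50% and 0.00 over all genes. None passed, 7 had an unadjusted p under 0.05, all with running lower (2.18% of all genes), and 6 lay lower in both running libraries on each of the 3 days (0.674% of all genes). The medians within days were −0.09, −0.31 and −0.18, beside −0.06, −0.02 and 0.03 over all genes. At day 11 the list thus lay near all genes, with 7 of 19 positive beside 8138 of 20462. The count became 6 of 19 with a median of −0.12 under median-of-ratios scaling and 4 of 19 with −0.15 with the olfactory receptor level as a covariate. Leaving out 1 library at a time gave medians of −0.22 to −0.14, and leaving out the day 18 libraries gave −0.09.

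Hlf (chromosome 11, 90336536 to 90390895, minus strand) measured 57.0 and 61.4 TPM in the running and 70.6 and 95.6 TPM in the sedentary pair on day 11. Day 18 gave 37.2 and 56.2 against 76.4 and 94.6 TPM, and day 27 gave 74.0 and 68.8 against 104 and 101 TPM. The groups did not overlap on any day. The log2 difference was −0.62 ± 0.12 (SE, 95% interval −0.89 to −0.35, limma adjusted p = 0.774). Cry1, a repressor of the loop, measured 9.47 and 9.53 against 14.1 and 12.6 TPM on day 11. Day 18 gave 6.99 and 9.98 against 12.6 and 12.2 TPM, and day 27 gave 11.8 and 8.79 against 14.8 and 13.6 TPM. All running libraries were below all sedentary libraries (log2 difference −0.47 ± 0.12, SE, adjusted p = 0.953). Per3 stood at 14.7 to 24.3 TPM in running and 23.2 to 33.0 TPM in sedentary libraries, and Per2 at 8.49 to 14.3 and 13.8 to 16.7 TPM. Their log2 differences were −0.45 ± 0.12 and −0.38 ± 0.11 (SE, adjusted p = 0.953 each), and both were separated within each day. Arntl, from the positive limb, had 37.0 ± 6.46 and 34.8 ± 5.10 TPM, and Dbp had 50.7 ± 12.7 and 50.1 ± 4.85 TPM, and these 2 were named after their values were seen. The members thus did not all lean one way.

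Promoters of clock genes often carry sites through which the loop acts, and 3 are shown because these genes had the lowest p-values of the list with a RefSeq entry. Each is the 250 bases before the RefSeq start (GRCm38.p6), 5′ to 3′ on the gene's strand, in lower case with the motifs in capitals. The motifs searched were the E-box CACGTG, bound by CLOCK and BMAL1, the D-box TTATGTAA (reverse complement TTACATAA), bound by Dbp, Tef and Hlf, and the cyclic AMP response element TGACGTCA. Both strands were searched, the E-box and the response element being their own reverse complements, and no motif holds another. Hlf lies at chr11:90390918-90391167 on the minus strand and holds 1 response element, Cry1 at chr10:85185055-85185304 on the minus strand with 1 E-box, and Per3 at chr4:151044666-151044915 on the minus strand with 2 D-boxes. Per2 is not shown.
Hlf: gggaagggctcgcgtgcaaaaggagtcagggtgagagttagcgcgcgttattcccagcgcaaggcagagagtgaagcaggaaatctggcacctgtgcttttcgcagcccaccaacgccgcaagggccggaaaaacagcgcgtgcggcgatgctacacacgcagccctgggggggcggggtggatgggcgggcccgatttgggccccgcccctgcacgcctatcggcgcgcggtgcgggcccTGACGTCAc
Cry1: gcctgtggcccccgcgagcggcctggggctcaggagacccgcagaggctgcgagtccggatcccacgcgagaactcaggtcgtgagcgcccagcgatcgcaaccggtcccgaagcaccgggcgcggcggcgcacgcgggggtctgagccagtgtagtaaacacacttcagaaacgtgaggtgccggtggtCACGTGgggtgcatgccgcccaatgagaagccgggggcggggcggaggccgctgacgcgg
Per3: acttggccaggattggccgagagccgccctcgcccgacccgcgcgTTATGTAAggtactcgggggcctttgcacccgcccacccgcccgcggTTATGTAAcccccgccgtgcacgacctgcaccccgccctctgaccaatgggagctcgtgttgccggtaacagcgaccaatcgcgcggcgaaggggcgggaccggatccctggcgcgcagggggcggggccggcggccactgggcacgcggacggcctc
The response element of Hlf begins 9 bases before the start, the E-box of Cry1 60 bases before it, and the D-boxes of Per3 205 and 158 bases before it. Of 17 clock genes with an entry, 5 held an E-box, 1 a D-box and 1 a response element. Of all 32851 windows of the same length, 6.02%, 0.819% and 1.55% held them. These shares are per window, while a clock gene was counted if any of its windows held the motif, so the units differ. A match of letters is a description and says nothing of binding in these samples.

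**Figure D4:**
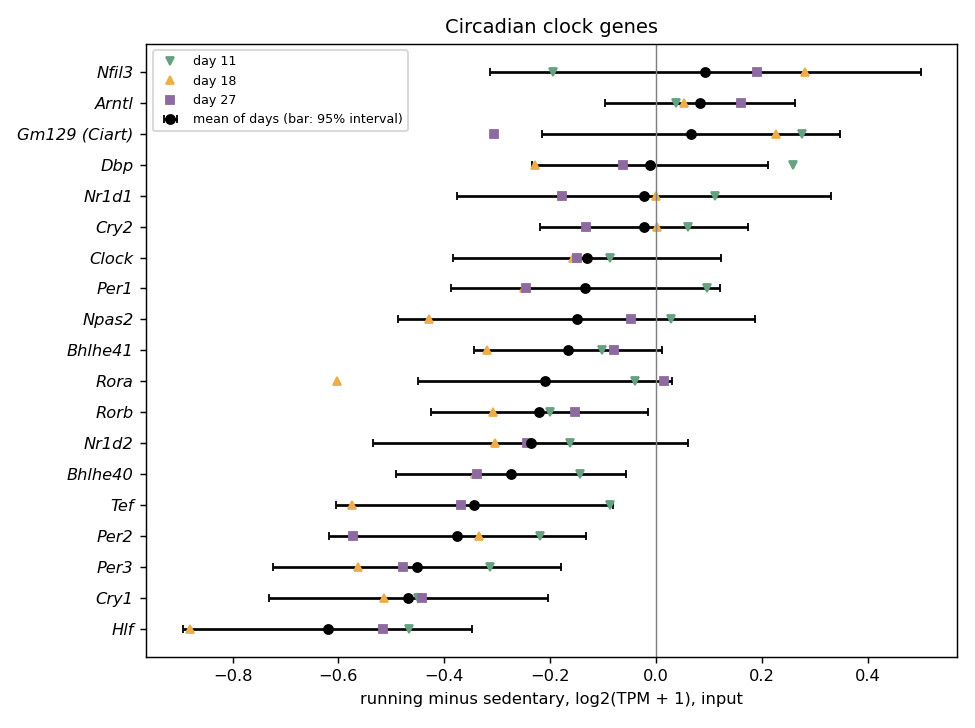
Running minus sedentary difference in log2(TPM + 1) of the 19 clock genes in input, as the mean of the days with its 95% interval (black) and within each day (coloured). Of the 19, 16 lie below 0 by the mean of the days, and Hlf, at −0.62, lies lowest.

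Genes entered as interneuron markers also had mostly lower values in running mice, while neuropeptide genes were split. The marker list shares Calb2 with the immature neuron genes and Sst and Cck with the neuropeptide genes, so these lists are not separate. Of 15 interneuron markers 2 had a positive difference, with a median of −0.16 against 0.00 over all genes, and 0 passed. The count stayed at 2 of 15 under median-of-ratios scaling, with a median of −0.12, and leaving out 1 library at a time gave medians of −0.21 to −0.09. Sst, the somatostatin of dendrite-targeting interneurons (chromosome 16, 23889573 to 23890958, minus strand), measured 356 and 355 TPM in the running and 399.5 and 391 TPM in the sedentary pair on day 11. Day 18 gave 276 and 319 against 385 and 456 TPM, and day 27 gave 285 and 294 against 329 and 355 TPM. Its groups did not overlap within any day (log2 difference −0.30 ± 0.10, SE, 95% interval −0.51 to −0.08, adjusted p = 0.953). Cck, the peptide of another class, had 290.3 ± 68.1 and 345 ± 33.4 TPM. The receptor tyrosine kinase Kit had 13.5 ± 3.79 and 16.4 ± 1.38 TPM, and Pvalb, a calcium-binding protein of fast-spiking cells, had 19.9 ± 2.73 and 22.2 ± 3.03 TPM. In running and sedentary IP libraries Sst had means of 45.4 and 43.5 TPM and Pvalb of 4.5 and 4.0 TPM. Nos1, also on the list, had 16.5 and 25.3 TPM there, nearer to its input means of 23.5 and 34.0 TPM. Npy, whose log2 difference was −0.18 ± 0.16, leaned lower at day 18 (53.8 and 79.1 against 82.6 and 149 TPM) and not at day 11 (128 and 113 against 133 and 104 TPM), and at day 27 both running libraries were higher (143 and 122 against 112 and 119.7 TPM). Among 17 neuropeptide genes 8 had a positive difference and the median was −0.06, so Penk and Sst leaned in opposite directions within that list. Tac1, which encodes substance P, had 10.7 ± 2.66 and 8.75 ± 2.25 TPM.

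Of 17 genes of GABA receptors and chloride transport 1 had a positive difference, but 8 of 17 did under median-of-ratios scaling, and the median of −0.06 became −0.01. That scaling made 12392 of all 20462 genes positive, with a median of 0.04. The receptor subunit Gabra2 had 105 ± 21.8 and 132 ± 17.9 TPM (log2 difference −0.34 ± 0.12, SE, adjusted p = 0.953), and the subunits Gabra3 and Gabrg1 had log2 differences of −0.22 and −0.14. Of 32 sodium, potassium and calcium channel genes 7 had a positive difference, and 15 after that scaling. Cacna1g, a low-threshold calcium channel, had 13.6 ± 1.62 and 10.4 ± 1.45 TPM and was higher on each day. Kcnn2 and Kcnq3, potassium channels that limit firing, had log2 differences of −0.27 and −0.21.

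Markers of the granule lineage gave no called difference. Of 18 mature granule neuron genes 5 had a positive difference and the median was −0.14. The medians of the days were −0.03, −0.24 and −0.13, beside −0.06, −0.02 and 0.03 over all genes. Leaving out 1 library gave −0.19 to −0.07. Calb1, the calcium buffer of mature granule neurons, measured 203 and 189.6 TPM in the running and 219 and 263 TPM in the sedentary pair on day 11. Day 18 gave 141 and 159 against 171 and 218 TPM, and day 27 gave 229 and 221 against 265 and 243 TPM. It was separated within each day (log2 difference −0.28 ± 0.10, SE, adjusted p = 0.953). Trpc6, a cation channel, was separated within each day too, with 87.8 ± 15 and 104 ± 15.7 TPM, and Stxbp6 and Plk5 had log2 differences of −0.36 and −0.59. Prox1 had 233 ± 42.8 and 235 ± 28.6 TPM, a log2 difference of −0.02 ± 0.10 with an interval of −0.23 to 0.19, and its sign turned under 5 of the 24 alternatives.

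Dcx, a microtubule protein of newborn neurons, had overlapping groups. It stood at 12.6 to 17.2 TPM in running and 13.3 to 16.3 TPM in sedentary libraries (log2 difference 0.04 ± 0.10, SE, 95% interval −0.17 to 0.25, adjusted p = 0.971). In the IP it had 137 ± 47.2 and 101 ± 28.7 TPM, and the difference between fractions was not called (adjusted p = 0.803). Among immature neuron genes 11 of 18 were positive, with a median of 0.06, and among intermediate progenitor genes 6 of 9, with a median of 0.09. With 1 library left out these medians ran from −0.0016 to 0.09 and from −0.05 to 0.17. That of the progenitor genes was −0.05 at day 11 and −0.23 at day 18, beside −0.06 and −0.02 over all genes. Draxin, Sox11, Sox4 and Tubb3, of migrating and growing neurons, had log2 differences of 0.41, −0.23, 0.21 and 0.13. Of 15 neural stem cell genes 7 had a positive difference (median −0.01, from −0.07 to 0.02 with 1 library left out): the nuclear regulators Id4 and Hopx had 95.5 ± 28.2 against 121 ± 21.6 TPM and 56.5 ± 14.2 against 70.9 ± 6.91 TPM, while Fabp7 and the filament Nes had log2 differences of 0.24 and 0.23. Rpl22, the ribosomal protein that the Cre tags, had 162 ± 55.6 and 157 ± 30.2 TPM (log2 difference 0.00, 95% interval −0.30 to 0.31).

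Of 20 cell cycle genes 17 had a positive difference, with a median of 0.17, and 0 passed. Within days the medians were −0.05, 0.28 and 0.39, beside −0.06, −0.02 and 0.03 over all genes. Their signs had the order of those of the olfactory receptor genes. With the olfactory receptor level as a covariate 14 of 20 cell cycle genes were positive with a median of 0.15. The thymidylate synthase gene Tyms, named after its values were seen, ranged from 169 to 3425 TPM over the libraries, with its lowest value in the running library b of day 11 and its highest in the running library c of day 18, as for the olfactory receptor mean. The other members stood far lower, Mki67, a marker of dividing cells, at 3.30 to 10.5 TPM. The part of the background in these values was not tested further.

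Glial and vascular markers gave no called difference either. Of 16 microglia genes 2 had a positive difference and the median was −0.17, with 4 of 16 and −0.12 under median-of-ratios scaling. Leaving out any 1 library gave medians from −0.19 to −0.13. The medians of the days were −0.01, −0.23 and −0.21, beside −0.06, −0.02 and 0.03 over all genes. At day 11 the lean was absent, with 8 of 16 microglia genes positive. Their summed TPM was 334 to 482 in running and 448 to 509 in sedentary libraries, so the groups overlapped. P2ry12, a purine receptor of resting microglia, measured 21.4 and 24.8 against 28.5 and 41.9 TPM on day 11. Day 18 gave 18.4 and 26.6 against 26.1 and 34.6 TPM, and day 27 gave 37.4 and 36.0 against 45.8 and 41.2 TPM. Only day 18 overlapped (log2 difference −0.41 ± 0.13, SE, adjusted p = 0.953). Tyrobp, a signalling adaptor, had 9.88 ± 4.17 and 17.4 ± 5.86 TPM, and Tmem119 and the protease Ctss had log2 differences of −0.28 and −0.21. Cx3cr1, the fractalkine receptor, had a smaller difference in the same direction, −0.08, with 23.5 ± 1.42 and 24.8 ± 1.90 TPM.

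Of 18 astrocyte genes 3 had a positive difference and the median was −0.08, but the median within day 11 was 0.11 and leaving out 1 library at a time took it from −0.14 to 0.00. The gap junction genes Gja1 and Gjb6 had 155 ± 18.1 against 187 ± 17.2 TPM and 22.0 ± 2.96 against 27.0 ± 2.43 TPM. The matrix protein Thbs4 had 5.66 ± 1.12 and 7.92 ± 1.70 TPM, and the glutamate transporter Slc1a3 had 341 ± 67.7 and 374 ± 51.0 TPM. Gfap, the filament of astrocytes and stem cells, had 283 ± 46.7 and 277 ± 22.5 TPM, and its difference of 0.02 changed sign in 4 alternatives. The myelin gene Mbp had 208 ± 51.1 and 239 ± 28.6 TPM, and of 16 oligodendrocyte genes 5 had a positive difference (median −0.06, from −0.13 to 0.01 with 1 library left out). Of 16 endothelial genes 12 had a positive difference (median 0.04), but 8 did with the olfactory receptor covariate, and the median ran from −0.06 to 0.12 with 1 library left out. Besides Esam, the tight junction gene Cldn5 stood at 2.09 to 13.8 TPM in running and 4.99 to 11.5 TPM in sedentary libraries, its lowest value in the running library b of day 11; without the running library a of that day its difference of 0.25 became −0.12. Slco1a4, Itm2a and Ly6a had log2 differences of −0.21, −0.27 and 0.24.

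Markers of choroid plexus, the tissue that makes cerebrospinal fluid and borders the hippocampus, differed between single libraries. Ttr, its most abundant transcript, stood at 202 TPM in the running library a of day 11 and 539 TPM in the running library d of day 18, and at 5.13 to 28.1 TPM in the other 10. No sedentary library exceeded 14.3 TPM. The log2 difference of 1.98 ± 1.06 (SE) was not called (adjusted p = 0.953) and ran from 1.14 to 2.82 when 1 library at a time was left out, with 1.14 without the running library d and 1.29 without the running library a. Of 11 choroid plexus and ependyma genes tested out of 12, 9 had a positive difference (median 0.20), and their summed TPM ran from 32.9 to 619 in running and from 38.6 to 77.3 in sedentary libraries. The running library d is also the one without which Mylk3 passed; the part of choroid plexus RNA in the differences reported here was not tested.

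Of 20 cholesterol synthesis genes tested out of 21 entered, 16 had a positive difference, with a median of 0.11, beside 50% and 0.00 over all genes, and 17 did under median-of-ratios scaling. None passed, and 4 had an unadjusted p under 0.05, all with running higher (2.01% of all genes). Idi1, an isomerase of the pathway, measured 52.1 and 57.4 against 43.7 and 49.4 TPM on day 11. Day 18 gave 55.2 and 53.7 against 41.0 and 47.9 TPM, and day 27 gave 52.2 and 50.8 against 44.5 and 44.8 TPM. It was higher in both running libraries of each day, and all running libraries lay above all sedentary ones (log2 difference 0.24 ± 0.09, SE, adjusted p = 0.953). Mvd and Fdft1, enzymes before and at the step to squalene, had 7.66 ± 1.74 against 5.64 ± 0.517 TPM and 57.3 ± 11.5 against 49.4 ± 6.18 TPM. The list's medians were 0.25, 0.11 and 0.01 on the 3 days, and that difference between days was not tested for the list.

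Genes that respond to corticosteroids, the stress hormones of the adrenal gland, were split, 8 of 16 positive with a median of −0.03. The metallothioneins Mt1 and Mt2, which bind zinc and copper, stood at 249 to 532 TPM against 462 to 765 TPM and at 56.1 to 168 TPM against 119.6 to 212 TPM. Their log2 differences were −0.62 ± 0.22 and −0.83 ± 0.24 (SE, adjusted p = 0.953 each), and the groups overlapped. Tsc22d3, a glucocorticoid-induced leucine zipper gene, was lower in both running libraries of each day, with 22.8 ± 4.20 and 28.5 ± 4.19 TPM. The cell cycle inhibitor Cdkn1a had 5.01 ± 1.79 and 2.92 ± 0.886 TPM, with a log2 difference of 0.58 ± 0.18 (SE, adjusted p = 0.953).

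**Figure D5:**
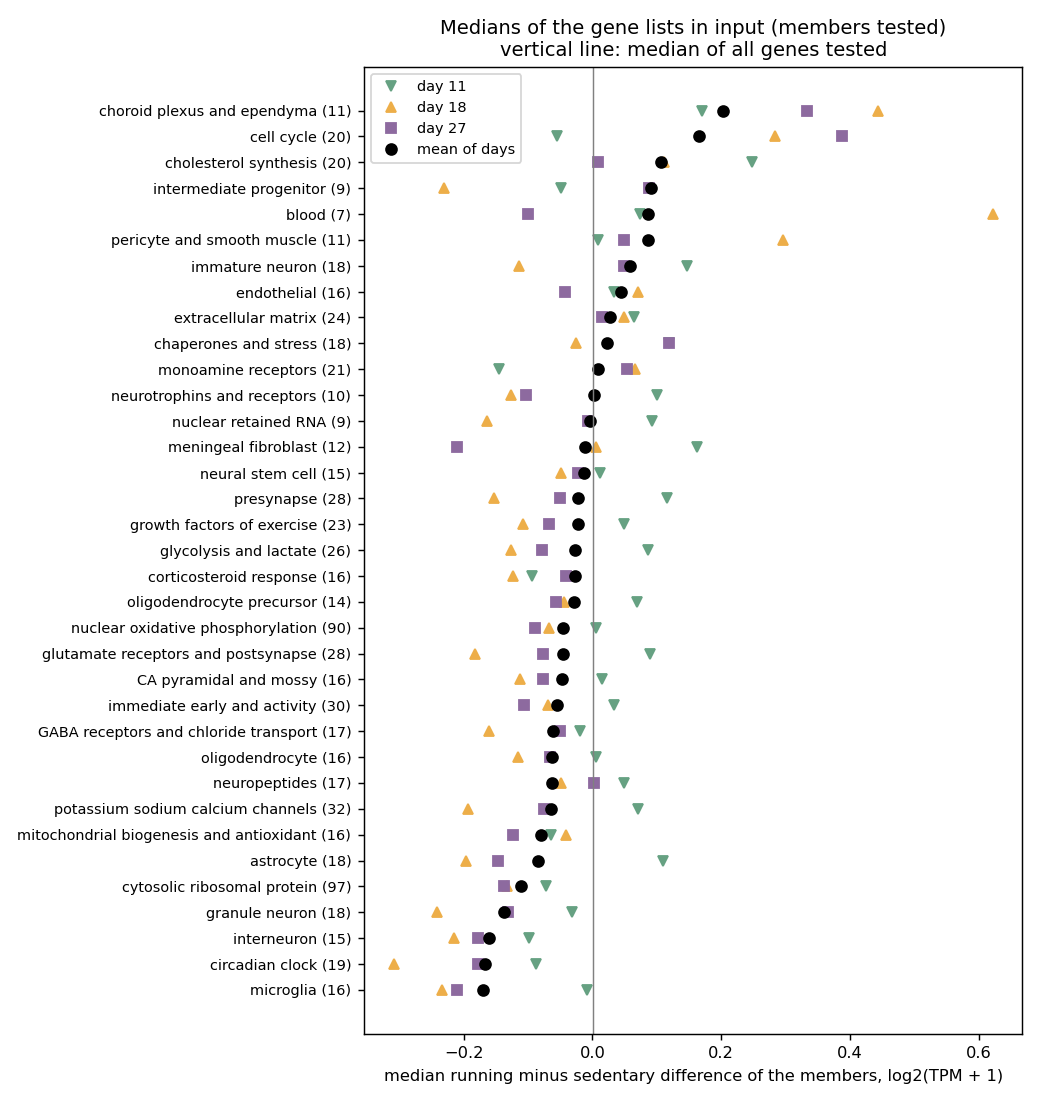
Median running minus sedentary difference in log2(TPM + 1) of the tested members of 35 gene lists in input (olfactory receptor, small nucleolar RNA and histone genes are left out), as the mean of the days (black) and within each day (coloured); the number of members tested stands beside each name. Microglia, clock, interneuron and granule neuron genes lie lowest, from −0.17 to −0.14, and choroid plexus, cell cycle and cholesterol synthesis genes highest, from 0.11 to 0.20, while the order within single days differs.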

How the data were processed

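The authors deposited 1 table of TPM for 23306 genes in 24 libraries (12 IP, 12 input), each column summing to 1000000. Per the submitters' processing notes RSEM and the mouse build mm10 were used; no aligner, version, annotation or strand setting is named there. Per the labels' protocols, libraries came from the SMARTer Stranded Total RNA-Seq kit, and the extraction is described for IP RNA only. TPM keeps no depth, so no counting interval or count test was possible; it is also relative, so RNA taken up by a few genes lowers all others.

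From the TPM, log2(TPM + 1) was computed for the 20462 genes with a mean of at least 1 TPM over the 12 input libraries. limma 3.58.1 (R 4.3.3; trend and robust eBayes) was fitted with 6 groups of 2 libraries, and the contrast was the mean of the 3 within-day differences; single days, their F test and IP minus input over 24 libraries were further contrasts. Each adjusted p given is limma's with Benjamini-Hochberg adjustment over all genes (threshold 0.05). Library measures were tested by exact permutation of activity within days. Letters shared by groups were not taken as pairs in the main fit, and a block for them was run as an alternative. The script was tested on simulated data.

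The members and the 39 gene lists were chosen with earlier results of these data known. Named genes were first the 12 largest changes per direction among those past the threshold, filled up by lowest p where fewer passed. As none passed here, all 12 per direction were those of lowest p. Each had 1 sign on all days and at least 5 TPM in the higher arm, with unnamed gene models left out. Up to 4 members of lowest p of each list described and a set of known genes were named too. Some genes the rule names are not reported here. Of the table's genes, 27 carried date-like names and were left as they stood, and list members under older symbols were matched through the reference tables. Coordinates are from GENCODE M21 (GRCm38). Alternatives were other pseudocounts (0.1, 5), filters (none, 5 TPM), scaling, an olfactory receptor covariate, plain eBayes, a replicate block, leaving out each library or day, and leaving out chemoreceptor genes.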

Additional observations from a re-analysis of the deposited data

Results flagged for a closer look

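In 8 of 190 groups of 6 libraries of the 95 named genes, 1 library lay far from the others by a gap test, which chance passes in about 1 in 20 groups. Each arm spans 3 days, so a gap can also be a gap between days. Mylk3 had 12.6 TPM in running library d of day 18, with the next value at 17.4 TPM. Vwa3a had 14.7 TPM in sedentary library e of day 27, next to 12.6 TPM. Atp2b4 and Bdnf were lowest in running library c of day 18, with 38.8 TPM (next 54.4) and 39.5 TPM (next 54.3). Igf1r had 21.5 TPM in sedentary library a of day 11, below 25.9 TPM. Cldn5 had 2.09 TPM in running library b of day 11, below 9.20 TPM. Sorcs1, a sorting receptor, had 6.80 TPM in sedentary library c of day 18, above 4.79 TPM. Hopx had 84.7 TPM in running library a of day 11, above 54.4 TPM.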

How the results depend on the processing

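Of 95 named genes, 85 kept their sign in every alternative run, among them all 24 nearest genes, and 1, Mylk3, passed in any (1.16 without the running library d of day 18). Over the mean of days, 1 gene passed with eBayes without trend and robust (Scarna8), 1 without the day 11 libraries (Gm11757), and 0 to 2 when 1 library was left out (2310009A05Rik and Mylk3 without running d, Hba-a1 without sedentary f). At day 11, 1 gene passed with a pseudocount of 0.1, and 0 to 143 with 1 library left out, the 143, all lower, without sedentary b. At day 18 the count was 0 with a pseudocount of 0.1, 4 with 5, 0 at a mean TPM of at least 5, 4 with plain eBayes, and 0 to 8 with 1 library left out (8 without running d). At day 27 it was 0 to 1 with 1 library left out. The difference between days gave 1 gene with a pseudocount of 5, 2 with plain eBayes, and 0 to 235 with 1 library left out (235 without sedentary b). IP minus input gave 0 to 1 with 1 library left out. The cause was not tested in these cases.

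The letters were checked for pairing: same-letter deviations correlated at 0.26, 0.09 and 0.08 on the 3 days. With 2 libraries per group these values cannot decide whether the letters pair the libraries. With the replicate block 0 genes passed over the mean of days, on each day (0 at day 18 against 2), between days and for IP minus input.

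Without the day 18 libraries Arc became 0.0023, Prox1 0.055 and Npy 0.11. Without the day 11 libraries Vgf became −0.036, Vegfa −0.095, Gfap −0.079, Rpl22 −0.067 and Tubb3 −0.00019, and without the day 27 libraries Rpl22 became −0.028. Prox1 became 0.028 under median-of-ratios scaling and 0.0026 with the olfactory receptor covariate. With 1 library left out the values ran from −0.089 to 0.11 for Vegfa, −0.010 to 0.093 for Dcx, −0.073 to 0.028 for Prox1, −0.016 to 0.047 for Gfap, −0.12 to 0.62 for Cldn5 (−0.12 without running a of day 11) and −0.11 to 0.12 for Rpl22. Depth is unknown, and the number of libraries limits all of these; 2 against 2 libraries gave a median standard error of 0.29 within a day.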

Other observations

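Several gene groups of housekeeping functions and of synapses were mostly on the lower side of 0 in running mice before scaling. The lean was least in the presynapse group (median −0.02), and 0 genes passed in any of them. Of 97 cytosolic ribosomal protein genes 16 had a positive difference (median −0.11 beside 0.00 over all genes), and 29 did under median-of-ratios scaling. Of 90 nuclear genes of oxidative phosphorylation 25 were positive (median −0.05), but 46 under that scaling, and of 26 genes of glycolysis and lactate 7 were, but 15 under it. Genes of glutamate receptors and the postsynapse (6 of 28, then 15) and of the presynapse (12 of 28, then 18) behaved likewise, so for these last 4 groups the side of 0 rests on the scaling. The scaling also made 12392 of all 20462 genes positive, with a median of 0.04. In the order given, the scaled medians of the 4 groups were 0.00, 0.02, 0.00 and 0.03, still below that of all genes.

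Small nucleolar and Cajal body RNA genes had the lowest median of the lists, −0.42 over 35 genes, with 10 positive. Leaving out 1 library at a time took it from −0.66 to −0.03. The row of Lars2, a mitochondrial leucyl-tRNA synthetase gene, ranged from 765 to 3662 TPM in running and from 920.4 to 2283 TPM in sedentary libraries (exact permutation within days, p = 0.167, adjusted p = 0.5 over 6 measures). None of the 13 mitochondria-encoded genes entered is among the genes measured. Whether reads of other RNAs, mitochondrial ones included, were counted in the Lars2 row was not tested, so its values need not be those of the messenger RNA. At day 18 Lars2 stood at 3662 and 3558 TPM in running and 1212 and 1347 TPM in sedentary libraries, a log2 difference of 1.5 ± 0.35 (SE, limma adjusted p = 0.762), and the running pair was the lower at day 27, with 779 and 765 against 920.4 and 1031 TPM. It passed at day 18 without the running library a or b of day 11 (adjusted p = 0.0310 and 0.0289) and without all day 11 libraries (adjusted p = 0.0147), and it was named after its values were seen.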
